A study of Homo sapiens with 6 samples.

Results

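The genes described here belong to the ATF4 arm of the amino acid stress response, and their mRNA levels were compared between atorvastatin-treated and control HepG2 cells. The members were 9 genes chosen by name: *TRIB3*, *ATF3*, *SLC7A11*, *ASNS*, *CHAC1*, *SESN2*, *DDIT3*, *DDIT4* and *ATF4*. A gene was measured where the exon array had a transcript cluster, the set of all core probe sets of a gene, that was annotated with that gene symbol alone. This held for 7 of the 9 genes, with 1 cluster each, out of 12676 genes with such a cluster on the array. *ATF4* and *DDIT4* had no such cluster and were not analysed here.

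HepG2 cells, an established human liver tumour line, stand in for hepatocytes, and all samples come from this 1 line. The 3 treated samples received 10 µM atorvastatin, an inhibitor of HMG-CoA reductase, for 24 h, and the 3 control samples were cultured without the drug. Both groups were kept in medium with lipoprotein deficient serum in place of fetal bovine serum. Each RNA sample was run on its own Human Exon 1.0 ST array, and the authors' values are log2 values after robust microarray analysis (RMA). The samples are triplicate wells that nothing in the labels ties to separate cultures, so a *p*-value here refers to the spread among wells, which may be technical.

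Cells that lack amino acids, carry unfolded protein in the endoplasmic reticulum or face related stress phosphorylate the translation factor eIF2α. Most protein synthesis then slows, while translation of the *ATF4* mRNA rises, so that ATF4 protein is set largely at a step that an mRNA array does not measure. ATF4 is a basic leucine zipper (bZIP) transcription factor that binds C/EBP-ATF response elements and raises genes of amino acid uptake, amino acid synthesis, redox defence and growth control. In hepatocytes this response is best known from diets short of amino acids and from stress of the endoplasmic reticulum.

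The core of the C/EBP-ATF response element, TGATGNAA, was searched on both strands of the RefSeq promoters (build GRCh38.p14, 250 bases before to 50 bases after a transcript start). Of the 9 genes, 8 matched an entry, all but *SLC7A11*, with 14 promoters between them. The core was found in *ASNS*, *ATF3* and *CHAC1*, and 3.62% of all 35116 promoters held it. Of the 27305 genes in that table, 4.46% held it in at least 1 promoter. The 250 bases before the start are shown for these 3 genes, with the core in capitals, and for *TRIB3*, which had the largest difference of the members on the array and no such core in its 3 promoters. *TRIB3* lies at chr20:381045-381294 (plus strand), *ATF3* at chr1:212565157-212565406 (plus strand), *ASNS* at chr7:97872409-97872658 (minus strand) and *CHAC1* at chr15:40953221-40953470 (plus strand).
TRIB3: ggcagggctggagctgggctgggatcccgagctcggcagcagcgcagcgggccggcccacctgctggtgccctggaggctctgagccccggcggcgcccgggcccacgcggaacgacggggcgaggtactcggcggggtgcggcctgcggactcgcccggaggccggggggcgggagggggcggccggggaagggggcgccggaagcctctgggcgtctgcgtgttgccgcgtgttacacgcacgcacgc
ATF3: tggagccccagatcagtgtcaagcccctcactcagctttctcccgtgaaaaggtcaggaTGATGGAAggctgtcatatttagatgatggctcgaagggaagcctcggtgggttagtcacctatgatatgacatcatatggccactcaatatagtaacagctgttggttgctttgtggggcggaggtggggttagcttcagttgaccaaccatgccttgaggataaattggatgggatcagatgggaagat
ASNS: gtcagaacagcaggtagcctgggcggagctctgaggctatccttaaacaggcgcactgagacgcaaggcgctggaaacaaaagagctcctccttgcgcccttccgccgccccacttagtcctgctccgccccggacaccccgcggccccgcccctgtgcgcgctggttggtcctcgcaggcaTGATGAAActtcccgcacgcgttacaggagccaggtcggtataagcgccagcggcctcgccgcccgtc
CHAC1: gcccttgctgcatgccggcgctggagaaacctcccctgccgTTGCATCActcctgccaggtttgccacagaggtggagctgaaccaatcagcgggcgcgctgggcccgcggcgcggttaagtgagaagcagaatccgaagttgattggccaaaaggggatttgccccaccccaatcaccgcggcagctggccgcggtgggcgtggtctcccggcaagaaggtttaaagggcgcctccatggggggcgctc

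The core began 68 bases before the start in *ASNS*, as TGATGAAA, and 191 bases before it in *ATF3*, as TGATGGAA, in each case in 1 of the 2 promoters of the gene. In *CHAC1* it began 209 bases before the start and lay on the opposite strand, read there as TTGCATCA and in the direction of the core as TGATGCAA. The cyclic AMP response element TGACGTCA, which reads the same on both strands, was in none of the 14 promoters and in 1.85% of all promoters. The antioxidant response element core TGACNNNGC was found in *TRIB3* alone, at 1 position that its 3 overlapping promoters share. It began 8 bases before the start of 1 promoter and 29 and 40 bases after the starts of the others, outside the bases shown. This core was in 13.3% of all promoters and in at least 1 promoter of 16.1% of all genes. A match describes the letters in this window and was not set against binding data.

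*TRIB3*, a member of the Tribbles family of pseudokinases that binds AKT and ATF4 and dampens both, had the largest difference of the members. Its log2 values were 9.61, 9.73 and 9.63 in atorvastatin-treated cells, against 9.30, 9.23 and 9.15 in control cells. All treated arrays lay above all control arrays, with 0.315 log2 units between the nearest ones, which is more than the spread within either group. The mean was 9.66 ± 0.0625 in treated cells and 9.23 ± 0.0727 in control cells (SD, n = 3 each), a 1.35-fold difference. The log2 difference was 0.43 with a 95% confidence interval from 0.20 to 0.66. *TRIB3* ranked 23rd of 12797 tested clusters by *p*-value in either direction, and 30 clusters had a larger increase in treated cells. In the main test, which has the replicate number as a block, it did not pass the correction over all clusters (limma, adjusted *p* = 1). With a trended and robust prior variance it did (limma, adjusted *p* = 0.0304), and adjusted *p* ranged up to 1 over the other alternatives. No alternative took the log2 difference below 0.40 or above 0.49. Only another scaling, a ratio of linear means or arrays left out could move it.

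*SLC7A11* encodes xCT, the light chain of the cystine and glutamate exchanger that supplies cysteine for glutathione. It is a target of NRF2 as well as of ATF4. Its log2 values were 8.58, 8.44 and 8.37 in treated cells, against 8.05, 8.26 and 8.20 in control cells. The groups did not overlap, and the gap between the nearest arrays was 0.116, about the size of the SD within each group. The mean was 8.46 ± 0.107 in treated cells and 8.17 ± 0.105 in control cells (SD, n = 3 each), or 1.23-fold higher in treated cells. The log2 difference of 0.29 had a 95% confidence interval from 0.027 to 0.56 and an adjusted *p* = 1 (limma). By replicate number the differences were 0.53, 0.18 and 0.17, so the first number carried the most, and without replicate 1 the log2 difference was 0.18.

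*CHAC1* encodes a γ-glutamylcyclotransferase that breaks down glutathione. It had log2 values of 6.45, 6.34 and 6.47 in treated cells, against 6.24, 6.34 and 6.16 in control cells. The lowest treated array and the highest control array, both of replicate number 2, had the same value to this rounding. Unrounded further they were 6.337 and 6.338, so the groups overlapped slightly. The mean was 6.42 ± 0.0729 in treated cells and 6.24 ± 0.0894 in control cells (SD, n = 3 each). The log2 difference was 0.18 (95% confidence interval −0.075 to 0.43, limma adjusted *p* = 1), and it was 0.11 without replicate 3 and 0.26 without replicate 2.

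*ASNS* encodes asparagine synthetase, which makes asparagine from aspartate and is the textbook target of the amino acid response. Its log2 values were 7.50, 7.60 and 7.61 in treated cells, against 7.36, 7.55 and 7.54 in control cells. The groups overlapped, and the lowest value was that of control replicate 1. The log2 difference of 0.087 (95% confidence interval −0.13 to 0.31, limma adjusted *p* = 1) was smaller than the control SD of 0.107. Without control replicate 1 and without a block it was 0.026.

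Of the transcription factors downstream of ATF4, *ATF3* encodes a bZIP repressor that responds to many kinds of stress. Its log2 values were 6.32, 6.22 and 6.40 in treated cells, against 6.04, 6.09 and 6.12 in control cells. Treated and control arrays did not overlap, with a gap of 0.099 between the nearest ones. The mean was 6.31 ± 0.0898 in treated cells and 6.08 ± 0.039 in control cells (SD, n = 3 each), a 1.17-fold difference. The log2 difference was 0.23 (95% confidence interval 0.0041 to 0.46, limma adjusted *p* = 1). With a trended and robust variance the interval was −0.064 to 0.53.

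*DDIT3* encodes CHOP, a bZIP factor that promotes cell death under lasting stress, and it was the 1 measured member with a lower mean in treated cells. Its log2 values were 6.87, 6.95 and 6.96 in treated cells, against 7.09, 6.95 and 6.93 in control cells. The groups overlapped, and the highest of the 6 values was that of control replicate 1 and the lowest that of treated replicate 1. The log2 difference was −0.065 (95% confidence interval −0.31 to 0.18, limma adjusted *p* = 1), and without replicate 1 it was 0.014.

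Among the regulators of growth, *SESN2* encodes sestrin 2, a leucine sensor that restrains mTORC1. Its log2 values were 7.69, 7.84 and 7.77 in treated cells, against 7.61, 7.59 and 7.71 in control cells. Treated replicate 1 lay just below control replicate 3, and the other 2 treated arrays lay above all controls. The log2 difference was 0.13 (95% confidence interval −0.10 to 0.36, limma adjusted *p* = 1), and without replicate 2 it was 0.070.

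**Figure D1:**
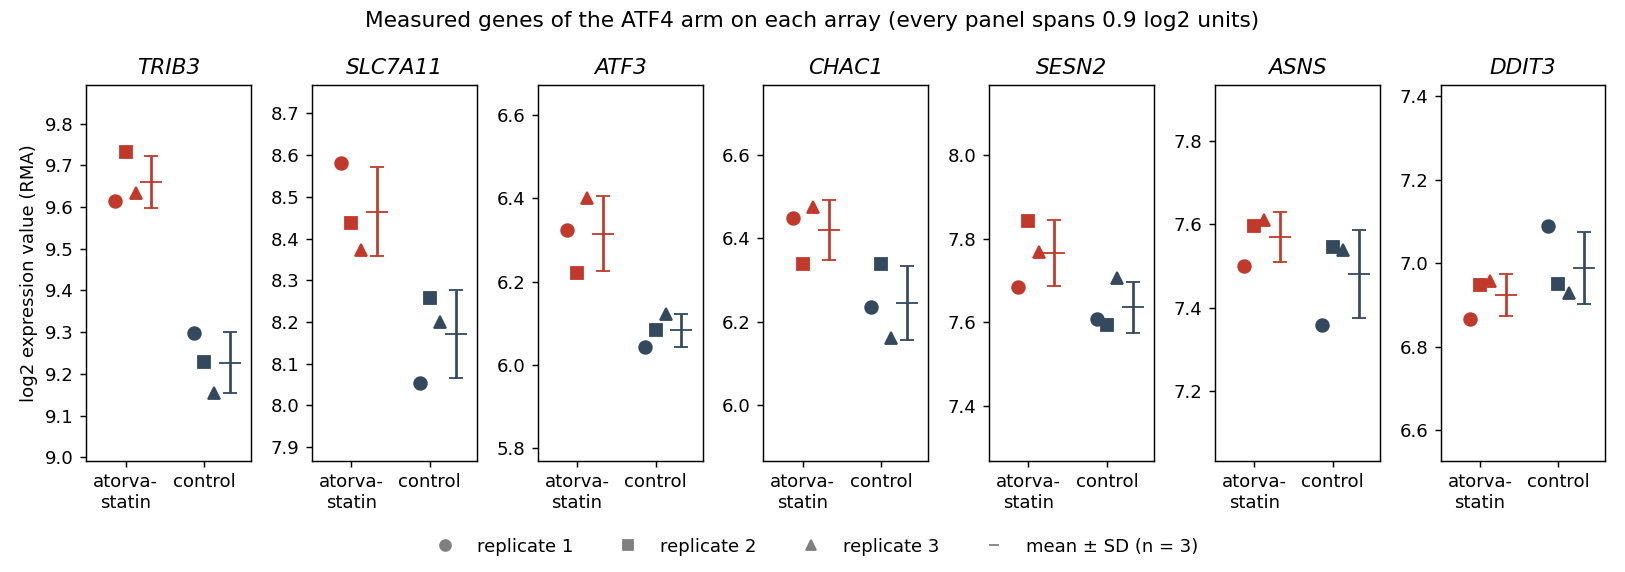
Log2 expression value (RMA, y axis) of each measured gene on each array, atorvastatin left of control, with symbols for the replicate numbers and a bar for the mean ± SD (n = 3). The treated arrays of *TRIB3*, *SLC7A11* and *ATF3* lie above all control arrays, with gaps of 0.315, 0.116 and 0.099, and those of the other 4 genes do not.

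With the array labels permuted exactly (two-sided exact permutation test), *TRIB3*, *SLC7A11* and *ATF3* each had *p* = 0.1, the smallest *p* that 3 against 3 arrays allow. The exact permutation test gave *p* = 0.2 for *CHAC1* and *SESN2*, 0.3 for *ASNS* and 0.5 for *DDIT3*. The order of the differences was *TRIB3*, *SLC7A11*, *ATF3*, *CHAC1*, *SESN2*, *ASNS* and *DDIT3*. The confidence intervals of neighbours in this order overlapped, and differences between neighbours were not tested.

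**Figure D2:**
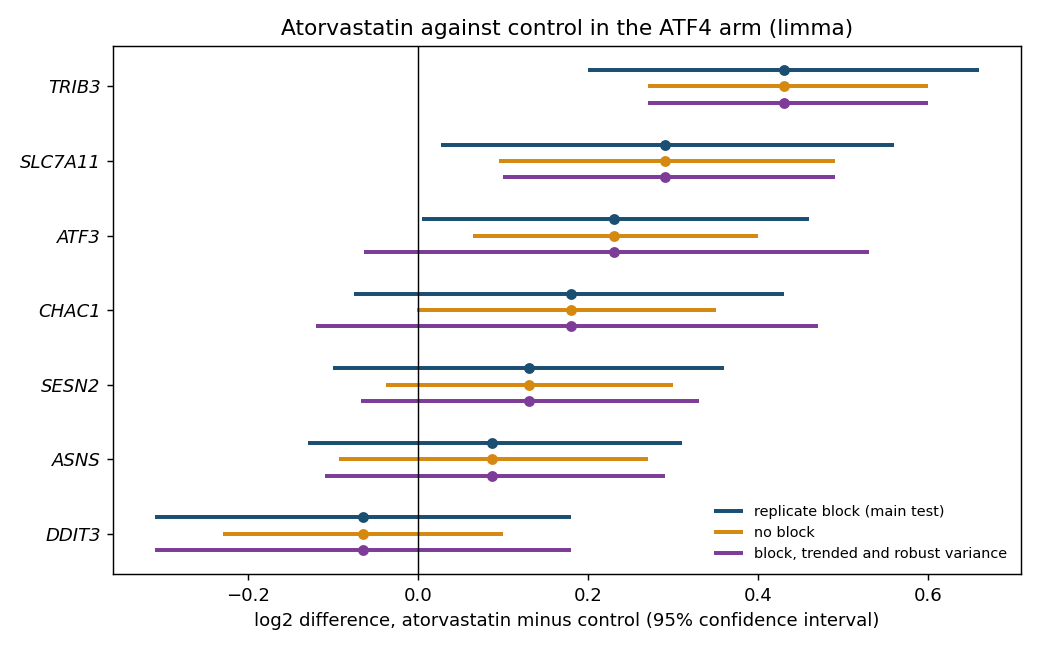
Log2 difference between atorvastatin and control (x axis) of each measured gene, with 95% confidence intervals from limma under 3 models. The interval of *TRIB3* lies above 0 in all 3 models, from 0.20 to 0.66 with the replicate block, and that of *ATF3* includes 0 with a trended and robust variance (−0.064 to 0.53).

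Counted together, 0 of the 7 measured genes had an adjusted *p* under 0.05, and the same call was made for 0% of the 12797 tested clusters (limma, smallest adjusted *p* = 0.535). At an unadjusted *p* under 0.05, 3 of the 7 were higher in treated cells, against 0.75% of all clusters, and 127 clusters (0.992%) passed in either direction. Without replicate 2, none of these 3 genes kept an unadjusted *p* under 0.05 (limma, 0.0618 for *TRIB3*, 0.0995 for *SLC7A11* and 0.19 for *ATF3*), while their log2 differences were 0.40, 0.35 and 0.28 in this fit with 1 pair fewer. Without replicate 1, *TRIB3* alone kept it, with 0.163 for *SLC7A11* and 0.109 for *ATF3*, and without replicate 3 *ATF3* lost it (0.12). The methods' paired t-test without adjustment gave 316 such clusters, *TRIB3* and *ATF3* among them and *SLC7A11* not (unadjusted values of 0.0183, 0.0406 and 0.128). All treated arrays lay above all control arrays in the same 3 genes, against 4.57% of all clusters, and below them in 0 genes, against 2.68% of all clusters. A mean at least 1.2-fold higher was seen in *TRIB3* and *SLC7A11*, against 0.906% of all clusters. Of the 7 genes, 6 had a higher mean in treated cells, against 55.8% of all clusters. The median log2 difference was 0.175 over the 7 genes and 0.011 over all clusters, and over the 7 genes it was 0.263 without replicate 2. All 7 genes had a mean log2 value of at least 6, the level taken here as not dim. The means of *ATF3* (6.31 treated, 6.08 control) and *CHAC1* (6.42 treated, 6.24 control) lay close to that level. Both genes were below the median of every array, the lowest of which was 6.72. The genes were chosen with results of these arrays known, so these shares describe them and are not a test.

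The step above ATF4 is set by the eIF2α kinases and the proteins that counter them. Of 11 genes in this list, 9 were measured, 3 had a higher and 6 a lower mean in treated cells, and 0 passed the correction (limma) or an unadjusted *p* under 0.05. The median log2 difference was −0.044. The smallest *p* was that of *EIF2AK4*, which encodes the amino acid sensor kinase GCN2, with log2 values of 7.45, 7.56 and 7.45 in treated cells, against 7.49, 7.60 and 7.88 in control cells. The groups overlapped, and the log2 difference was −0.17 (95% confidence interval −0.45 to 0.11). *DNAJC3*, a co-chaperone that inhibits eIF2α kinases, had a log2 difference of −0.14. *IMPACT*, an inhibitor of GCN2, had −0.10 at a dim mean of 5.33 in treated cells and 5.43 in control cells. The highest value of *EIF2AK4* and *DNAJC3* was on control replicate 3, a feature picked out after the values were seen. The same held for 9 of the 27 list genes named here, for 31 of all 86 (36%) and for 20.2% of all clusters.

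Of 10 bZIP partners and related factors, 8 were measured and 6 had a higher mean in treated cells, with log2 differences from −0.073 to 0.12. *CEBPG*, a heterodimer partner of ATF4, and *ATF5*, a factor translated like ATF4, each had a log2 difference of 0.12, with overlapping groups. *CEBPA*, a liver factor of the C/EBP family, had 0.081. The median of this list was 0.072.

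Other measured genes that ATF4 is known to raise had smaller differences than *TRIB3*, but several such genes were not measured. All 10 amino acid transporters of the list were measured, with log2 differences from −0.11 to 0.065 and a median of 0.019. *SLC38A2*, the sodium-coupled neutral amino acid transporter SNAT2, had log2 values of 11.72, 11.75 and 11.66 in treated cells, against 11.78, 11.78 and 11.89 in control cells. The treated arrays of *SLC38A2* all lay below the controls. *SLC7A1*, a cationic amino acid transporter, lay above them on every treated array, with a log2 difference of 0.062, and *SLC1A4*, a neutral amino acid transporter, had 0.065 with overlapping groups. Of 12 enzymes of serine, glycine, proline and one-carbon metabolism, 4 were measured. *PSAT1*, *PSPH*, *MTHFD2*, *ALDH1L2*, *MTHFD1L*, *PYCR1*, *GPT2* and *CTH* were not measured. Among the measured enzymes *PHGDH*, the first enzyme of serine synthesis, had a log2 difference of 0.12. *SHMT2*, a mitochondrial serine hydroxymethyltransferase, had 0.077 and *ALDH18A1*, an enzyme of proline synthesis, −0.054.

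The 13 aminoacyl-tRNA synthetases and tRNA export genes were all measured, and 9 had a higher mean in treated cells, with a median log2 difference of 0.032. *YARS1* and *SARS1*, which charge tyrosine and serine tRNA, had log2 differences of 0.17 and 0.13, and *XPOT*, the tRNA exporter, had −0.18. The groups overlapped in all 13. Of 16 secreted and growth control genes, 13 were measured, with log2 differences from −0.19 to 0.082 and overlapping groups in each. *CHAC2*, a relative of *CHAC1*, was the lowest, *TRIB1* the highest, and *VLDLR*, a lipoprotein receptor and ATF4 target, had a log2 difference of 0.071.

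The other arms of the unfolded protein response, NRF2 and p53 were set beside the members because some members also answer to them. Of 17 genes of the chaperone, XBP1 and ATF6 arm, 12 were measured, 5 with a higher and 7 with a lower mean in treated cells, and the median log2 difference was −0.009. *DNAJB9*, an endoplasmic reticulum co-chaperone, had log2 values of 6.90, 6.75 and 6.82 in treated cells, against 6.55, 6.71 and 6.69 in control cells, and its groups did not overlap. *CRELD2*, another endoplasmic reticulum protein, lay lower on every treated array (log2 difference −0.090), and *SEL1L*, a part of the degradation machinery for unfolded protein, had −0.11 with overlapping groups.

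Of 10 NRF2 targets, 8 were measured, with log2 differences from −0.037 to 0.052. *SRXN1*, sulfiredoxin, had 0.052, *ME1*, malic enzyme, 0.051 at a dim mean of 2.98 in treated cells and 2.93 in control cells, and *ABCC2*, a canalicular export pump, −0.037 with every treated array below the controls. Of 12 p53 targets, 9 were measured, 4 with a higher mean. *TP53I3*, an oxidoreductase, had a log2 difference of 0.17 with groups that did not overlap, *CDKN1A*, the inhibitor p21, of 0.12 and *RRM2B*, a ribonucleotide reductase subunit, of −0.10, both with overlapping groups. Over all 9 lists, 86 genes were measured and 0 had an adjusted or an unadjusted *p* under 0.05 (limma), with 3 genes above and 3 below the controls on every treated array. These counts can be read beside the shares of all clusters given above, 4.57% above, 2.68% below and 0.992% with an unadjusted *p* under 0.05 in either direction, and each is close to what that share of 86 genes would be. Their median log2 difference was 0.015. The lists were tested gene by gene, and no difference between a list and the members was tested.

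**Figure D3:**
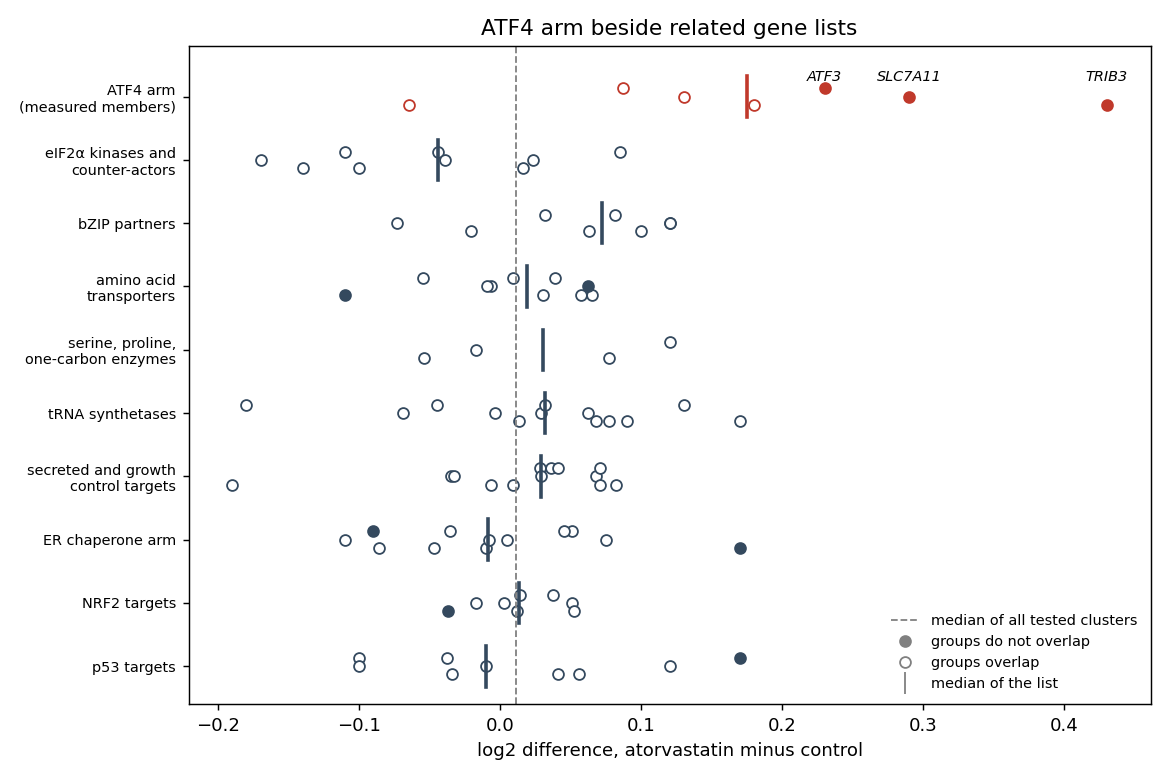
Log2 difference between atorvastatin and control (x axis) of each measured gene of the ATF4 arm and of 9 related lists (rows), with filled points where the groups do not overlap, a bar for each list's median and a dashed line for the median of all clusters (0.011). *TRIB3*, *SLC7A11* and *ATF3* lie at 0.43, 0.29 and 0.23, beyond every gene of the other lists, whose highest value is 0.17 (*DNAJB9*). Members and lists were chosen with earlier results of these data known, so this contrast is a description and not a test.

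Members were also set against a relative or partner on the same array, by the difference of the 2 log2 values on each array, in 6 pairs chosen with the values known. The difference of *TRIB3* exceeded that of *TRIB1* by 0.35 and that of *TRIB2* by 0.47 on the log2 scale. *SLC7A11* exceeded *SLC3A2*, the heavy chain of the same exchanger, by 0.30, and *CHAC1* exceeded *CHAC2* by 0.37. *TRIB2*, *SESN3* and *CHAC2* were dim, with mean log2 values of 5.44, 5.51 and 5.37 in treated cells and 5.47, 5.48 and 5.56 in control cells, so the pairs that hold them rest on a dim cluster. *CHAC2* had log2 values of 5.48, 5.33 and 5.29 in treated cells, against 5.34, 5.48 and 5.85 in control cells. In these 4 pairs the treated and control arrays did not overlap, and the exact permutation test, two-sided, gave *p* = 0.1, the smallest possible, with *p* = 0.15 after Benjamini-Hochberg adjustment over the 6 pairs. *SESN2* exceeded *SESN1* by 0.14 (exact permutation *p* = 0.3, adjusted *p* = 0.36) and *SESN3* by 0.10 (exact permutation *p* = 0.5, adjusted *p* = 0.5), with overlapping groups. Neither the permutation nor the adjustment covers the choice of pairs, so these values are a description.

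The mean of the 7 members, each centred on its own mean, was 0.078, 0.091 and 0.106 on the treated arrays, against −0.112, −0.068 and −0.095 on the control arrays. The genes whose values on the 6 arrays were most like this profile were *CNKSR1* (Pearson *r* = 0.999, log2 difference 0.18), *FANCE* (0.994, 0.19), *LRP8* (0.993, 0.31), *SLC16A13* (0.993, 0.62) and *LPIN1* (0.992, 0.74). These correlations are a description over 6 arrays that fall into 2 groups, and 121 of the 8075 genes compared reached an *r* of 0.9.

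Array medians of the tested clusters ranged from 6.72 to 6.76, and pairs of arrays correlated with a Pearson *r* from 0.991 to 0.998. The lowest of these was between control replicates 1 and 3. Without control replicate 1 and without a block the log2 difference was 0.47 for *TRIB3*, 0.24 for *SLC7A11* and 0.21 for *ATF3*, and without control replicate 3 it was 0.40, 0.31 and 0.25. Of 10 hepatocyte and hepatoma markers 7 were measured, with mean log2 values from 9.56 to 12.33 (*ALB*, *APOA1* and *AFP* among them). Their summed log2 value was 79.4 to 79.9 in treated cells and 79.3 to 80.8 in control cells. The 5 endothelial and the 2 measured leukocyte markers were all under a mean of 6, as were 3 of the 6 fibroblast markers, whose summed log2 value was 31.7 to 32.3 in treated cells and 31.1 to 32.2 in control cells. The part of these markers in the results was not tested.

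**Figure D4:**
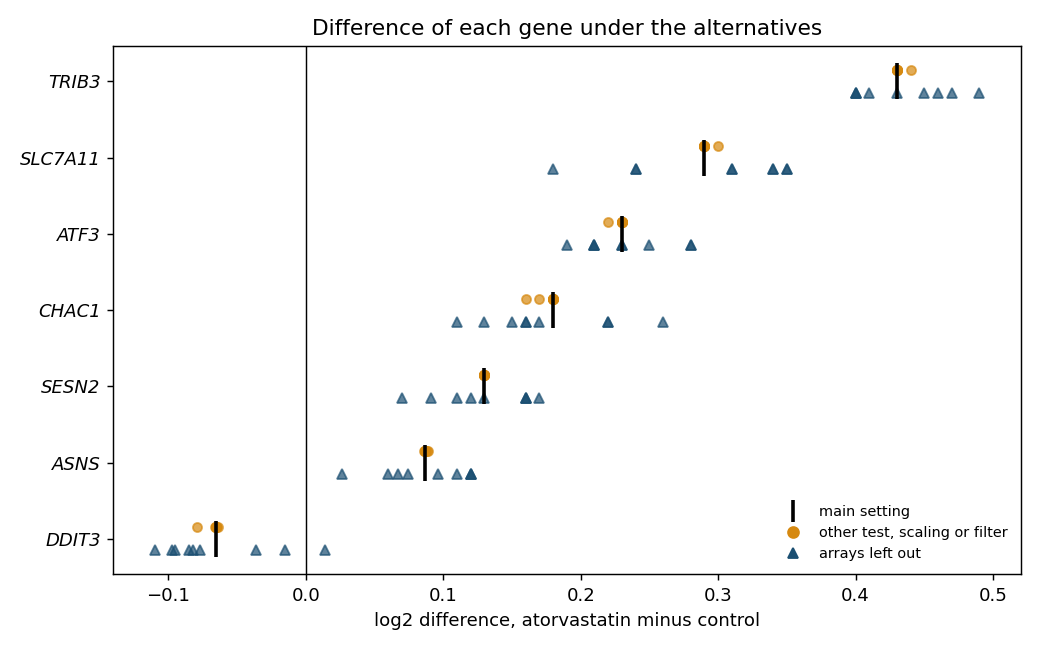
Log2 difference between atorvastatin and control (x axis) of each measured gene in the main setting (black bar), under another test, scaling or filter (circles) and with arrays left out (triangles). Values for *TRIB3* stay between 0.40 and 0.49 and those for *SLC7A11* spread from 0.18 to 0.35, while *DDIT3* lies on both sides of 0, from −0.11 to 0.014. Another test or filter leaves a value in place by design.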

How the data were processed

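Gene expression was measured with exon arrays in 3 atorvastatin-treated and 3 control samples. Scanner files were summarised by the authors with RMA in Partek Genomics Suite, restricted to core probe sets, and averaged within a gene. The table they deposited gives log2 values, 1 for each transcript cluster, from 1.48 to 13.05. Software versions were not given in the sources used here. The processing notes name build hg18. The table has 16634 clusters. Those annotated with a single symbol (12797) were tested, and 12774 of them matched the RefSeq gene table by Entrez ID.

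The values were compared with limma 3.58.1 in R 4.3.3 (lmFit and eBayes), blocked on replicate number, as the study used a paired test, and with Benjamini-Hochberg adjustment at 5% over all tested clusters. The fit had 2 residual and 4.58 prior degrees of freedom. Lists, promoters and exact permutation tests were computed in Python 3.11.15. The members and lists were chosen with earlier results of these data known. Named were all measured members, the 3 genes of each list with the smallest *p*, and the 5 genes most like the members' profile among those with a mean of at least 6. *TRIB2*, *SLC3A2*, *SESN1* and *SESN3* were added as relatives or partners after their values were seen. The number of arrays limits the precision. The alternatives were another test, variance model, filter, scaling or cluster set, and each replicate or array left out.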

Additional observations from a re-analysis of the deposited data

How the results depend on the processing

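With 3 arrays in each group the main test had 2 residual degrees of freedom, which limits its precision, and signal over background is not analysed here. The values do not bear out a pairing by number: after subtraction of the group means, same-numbered arrays correlated at −0.46, 0.07 and −0.56. Without the replicate block, 0 of the 7 members and 4 of all clusters passed the correction (*TRIB3*, adjusted *p* = 0.218 from limma). Under a trended, robust prior variance 1 member passed, *TRIB3*, at an unchanged log2 difference of 0.43, and 21 of all clusters did. With a replicate number or an array left out, 0 members passed, and the count over all clusters was 0 to 32, with 16 without replicate 1, 32 without replicate 3 and 6 without control replicate 1 and no block. The log2 difference of *DDIT3* ran from −0.11 to 0.014 with arrays left out and was positive only without replicate 1. The cause of these changes was not tested. The direction of the other 6 members held under all 18 alternatives. Another test, variance model, filter or cluster set could not move a log2 difference in this balanced design. Only another scaling, a ratio of linear means or arrays left out could do so. The median of the members was 0.176 after median centring and 0.163 after quantile normalization, and 0.157 to 0.263 with a replicate number left out.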
